A study of Mus musculus with 8 samples.

Results

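Less mature natural killer (NK) cells of the tumour-bearing mouse liver were taken from droplet single-cell RNA-seq as barcodes that carried NK transcripts and genes of early NK maturation, and no transcript of late NK maturation. A barcode qualified with a unique molecular identifier (UMI, 1 counted transcript molecule) in at least 3 of the 8 NK genes Ncr1, Klrb1c, Klre1, Klra8, Klra4, Klra9, Eomes and Prf1, and in at least 1 of Cd27, Tcf7, Ltb and Kit. It had no UMI in S1pr5, Itgam and Klrg1, which mark mature NK cells, in Cxcr6, in the T cell genes Cd3d, Cd3e and Cd3g, in the B cell gene Cd79a or in the macrophage genes Lyz2 and C1qa. After removal of barcodes under 500 UMIs or 300 genes, or above 20% mitochondrial UMIs, 21482 remained and 284 of them met the rule. They were chosen on measured UMIs of these 22 genes, so the 22 genes are described below and were not tested.

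NK cells are innate lymphocytes that kill infected and transformed cells with perforin and granzymes and release cytokines and chemokines. In the mouse they mature from CD27+ CD11b- cells, through cells with both proteins, to CD27- CD11b+ cells, where CD11b is the product of Itgam. Early cells depend on TCF-1, the product of Tcf7, whereas the transcription factors T-bet, ZEB2 and Blimp-1 drive the late steps, in which KLRG1 and the egress receptor S1PR5 appear. The liver also holds group 1 innate lymphoid cells (ILC1), resident relatives of NK cells that carry CXCR6.

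Knockout mice were Ncr1iCre Nr4a1fl/fl and control mice were Ncr1WT Nr4a1fl/fl, so both groups carried the floxed Nr4a1 alleles and differed in Cre. Cre is driven by Ncr1, which encodes the activating receptor NKp46, and so acts in NK cells and ILC1 and in other cells that express Ncr1. Nr4a1 encodes the nuclear receptor Nur77. Hepatocellular carcinoma was raised in male C57BL/6 mice aged 8 to 10 weeks by hydrodynamic tail vein injection of 30 µg plasmid, which delivered Cas9 with a guide to the tumour suppressor Trp53, a transposon with the oncogene c-Myc and a transposase, and livers were taken 4 to 5 weeks later. Each group had 3 libraries. Knockout 3 pooled 2 mice and control 3 pooled 3 mice, and the labels do not say which animals lie behind the other 4, so p-values over libraries measure the spread between these libraries.

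The less mature NK cells numbered 23, 6 and 26 in knockouts 1, 2 and 3, against 67, 29 and 133 in controls 1, 2 and 3. Their summed UMIs were 210059, 35882 and 304491 in the knockouts, against 629227, 162027 and 971206 in the controls, and the median member held 5378 UMIs. A gene with no UMI may therefore still lie at up to 14.3, 83.6 and 9.85 CPM (UMIs of the gene scaled to a common library total) in the members of knockouts 1, 2 and 3, against 4.77, 18.5 and 3.09 CPM in those of controls 1, 2 and 3, a limit that covers counting error only. Over all barcodes the libraries held 4126740 to 122609032 gene UMIs, and knockout 2 and control 2 had 75.1% and 27.9% mitochondrial UMIs in their median barcode before filtering, against 6.68% to 10.0% in the other 4 libraries. Knockout 2 fell below 10 members and stayed out of the tests across genes, other than the alternatives named as of all 6 libraries, and its values are shown.

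A few members were very deep. One barcode of knockout 3 held 96302 UMIs, 31.63% of that library's sum, and 2 barcodes of control 1 held 39.85% of theirs. The summed level of 16 hepatocyte genes was 17539 CPM in the deep barcode of knockout 3 and 567 CPM in its other members, and 11083 CPM in the deep barcodes of control 1 and 399 CPM in the others there. Over all members this sum was 90.5, 334 and 5934 CPM in knockouts 1, 2 and 3, against 4657, 105 and 901 CPM in controls 1, 2 and 3. No doublets were removed, so counts of genes that passed are also given without barcodes of at least 50000 UMIs, an alternative chosen after seeing the data, as are other values where named.

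Members carried the NK genes in different combinations. A UMI was found for Klre1 in 93.3%, for Klrb1c (NK1.1) in 89.1%, for Ncr1 in 84.9%, for the pore-forming Prf1 in 71.5% and for the transcription factor Eomes in 52.8% of members. The Ly49 receptor genes Klra8, Klra4 and Klra9 were each found in 34.9% to 45.8%, and because Ly49 genes are near-identical copies their counts are uncertain. In 4150 B cells, chosen by 2 of Cd79a, Cd79b and Ms4a1, the same NK genes were found in 0.265% to 2.15% of barcodes at a median of 2952.5 UMIs. All 8 NK genes were found in 10 members, and exactly 3 in 48.

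Of the genes of early maturation, the lymphotoxin gene Ltb was found in 61.3% of members, Tcf7 in 48.2%, the costimulatory receptor Cd27 in 46.5% and the stem cell factor receptor Kit in 19.7%. A single one of the 4 genes placed 133 members (46.8%) in the gate, most often Ltb (43 members), Cd27 (39) or Tcf7 (39), and all 4 were found together in 6. Ltb is shared with B cells, where 74.7% of barcodes had a UMI, against 8.07% for Cd27, 3.33% for Tcf7 and 2.72% for Kit. These genes were also present, less often, in the mature NK gate used below, at 23.7% for Ltb, 21.5% for Tcf7, 19.4% for Cd27 and 4.79% for Kit.

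The sets of members with each of these genes overlapped and differed in effector transcripts. Gzma, which encodes granzyme A, stood at 4880 CPM in the 132 members with a Cd27 UMI, 3930 CPM in the 174 with Ltb, 2816 CPM in the 137 with Tcf7 and 1885 CPM in the 56 with Kit, summed over libraries. Without the deep barcodes these were 5953, 3930, 3525 and 2743 CPM. The Kit set, of 4 and 5 members in knockouts 1 and 3 and of 14, 4 and 28 in controls 1, 2 and 3, had the lowest Gzma of the 4 sets in each of these 5 libraries. With the deep barcodes included, the order of the other sets varied, with more Gzma in the Ltb than in the Cd27 set of knockout 3 (6985 and 4437 CPM) and control 1 (3494 and 2107 CPM) and less in the other 4 libraries. The deep barcodes lay in knockout 3 and control 1. Without them the Cd27 set fell from 132 to 130 members and the Ltb set stayed at 174. Values by library without them are not given, and their part in this order was not tested. Over all libraries the 150 members with an Eomes UMI were deeper than the 134 without one, with medians of 7116 and 4369.5 UMIs, and held 313 and 97.5 CPM of the division marker Mki67. These sets were cut from the same cells and carry no test.

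Members just inside the threshold of 3 NK genes had lower CPM of other NK genes than those far inside. The sums below include the deep barcodes. Values of these sets without the deep barcodes are not given, and their part in the difference was not tested. The 48 members with exactly 3 NK genes held 604 CPM of Nkg7, a cytotoxic granule gene, 592 CPM of the receptor adaptor gene Tyrobp and 753 CPM of Gzma. The 48 barcodes with 2 NK genes that met the rest of the rule held 346, 274 and 101 CPM of these 3 genes, and the 236 members with at least 4 held 1636, 1676 and 5221 CPM. Further evidence on the label came from genes of other cells. The T cell list outside the rule, 13 genes, summed to 881, 1115 and 545 CPM in members of knockouts 1, 2 and 3, against 518, 648 and 859 CPM in controls 1, 2 and 3, with Trgc2 at 0 in all 6. Of this list, Trbc2 stood at 112 CPM in members with exactly 3 NK genes and 273 CPM in those with at least 4. Trac stood at 4.59 and 6.93 CPM in these sets. Genes of 13 myeloid markers summed to 55.7 to 184 CPM in the knockouts, against 61.7 to 492 CPM in the controls, with Csf1r, Clec4f, Marco and Vsig4 at 0 throughout. ILC2 and ILC3 markers summed to 0 to 62.4 CPM, against 0 to 108 CPM, with Il5, Il13, Il22 and Il17a at 0 in every library. Tmem176b of this list was present in members of controls 1 and 3, with values given below beside the Cxcr6 gate. The sums come from genes other than those named at 0.

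The first comparison asked whether genes outside the rule separated the less mature from the mature NK cells of the same libraries. The mature gate held 418 barcodes with at least 3 of the 8 NK genes and a UMI in S1pr5, Itgam or Klrg1, and none of the other excluded genes. Relative to it, less mature NK cells had less of the transcripts of granzyme A, the chemokine CCL5, the chymase CMA1, ZEB2 and Ly6C2, and more Emb, which encodes the membrane glycoprotein embigin. Both gates were drawn on UMIs of the same cells, so these differences describe what goes with the 22 genes. In knockouts 1 and 3 and controls 1, 2 and 3, 10 of 5489 genes passed an adjusted p of 0.05 (0.182%; edgeR quasi-likelihood test with library as a block, Benjamini-Hochberg), 1 of them higher (0.0182%) and 9 lower (0.164%), and 552 (10.1%) had an unadjusted p under 0.05. Without the deep barcodes 23 of 4643 passed (0.495%), 7 higher and 16 lower. With all barcodes 5 of 6440 passed without control 2 and 6 of 6398 without knockout 1, all of them lower, so that Emb did not pass there.

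**Figure D1:**
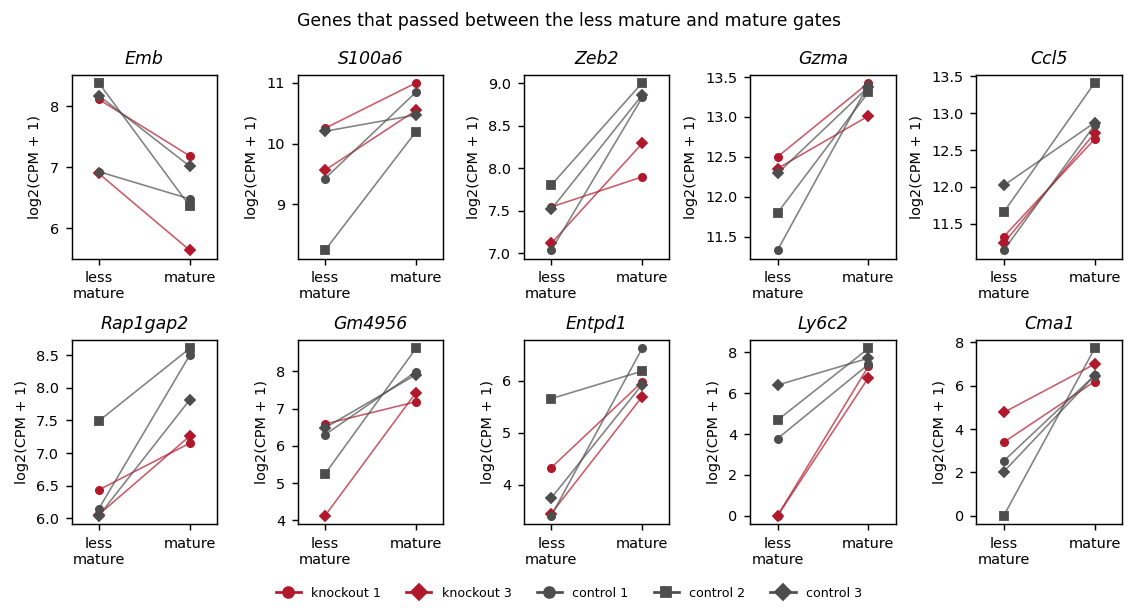
The 10 genes that passed between the less mature gate (left of each panel) and the mature gate (right), as log2(CPM + 1) of the UMI sums, 1 point per library and gate; lines join the gates of a library, with knockouts in red and controls in grey, and axes do not start at 0. Emb lies higher in the less mature gate in all 5 libraries and the other 9 genes lie lower in all 5.

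Gzma stood at 5794 and 5235 CPM in less mature NK cells of knockouts 1 and 3 and at 2575, 3561 and 5016 CPM in those of controls 1, 2 and 3. In mature NK cells it stood at 11006 and 8257 CPM in knockouts 1 and 3 and at 10845, 10158 and 10630 CPM in controls 1, 2 and 3. The ranges of the gates did not overlap, and the log2 fold change was -1.21 ± 0.15 (SE), with an adjusted p of 0.000865 in edgeR. Ccl5, which attracts T cells and dendritic cells, stood at 2571, 2417, 2263, 3234 and 4157 CPM in less mature NK cells of knockouts 1 and 3 and controls 1 to 3, and at 6412, 6782, 7323, 10866 and 7486 CPM in mature NK cells of the same libraries. Every library had less Ccl5 in the less mature gate, by -1.38 ± 0.13 on the log2 scale (adjusted p 6.56e-05, edgeR). Granzyme A and CCL5 transcripts were thus lower but still among the abundant mRNAs of the less mature cells.

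Cma1, a chymase that mature NK cells of the mouse express, was close to absent from the less mature gate. It stood at 9.52, 26.3, 4.77, 0 and 3.09 CPM in less mature NK cells of knockouts 1 and 3 and controls 1 to 3, and at 72.3, 127, 88.3, 210 and 87.5 CPM in mature NK cells, a log2 fold change of -3.72 ± 0.39 (adjusted p 0.000262, edgeR). Zeb2, the transcription factor of terminal NK maturation, averaged 172 ± 37.8 CPM in the less mature and 396 ± 116 CPM in the mature gate (SD, n = 5 libraries each), and fell by 1.17 ± 0.19 on the log2 scale (adjusted p 0.012, edgeR). Ly6c2 averaged 24.2 ± 34.7 and 187 ± 68.8 CPM in the less mature and mature gates, with a log2 fold change of -2.83 ± 0.43 (adjusted p 0.00932, edgeR). It was at 0 in the less mature cells of all 3 knockouts and at 12.7, 24.7 and 83.4 CPM in those of controls 1, 2 and 3, and reads of its near-identical neighbour Ly6c1 make its counts uncertain.

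Entpd1, the ectonucleotidase CD39, ranged from 9.54 to 49.4 CPM in less mature and from 50.7 to 97.5 CPM in mature NK cells (log2 fold change -2.09 ± 0.32, adjusted p 0.00932 in edgeR). The calcium-binding protein gene S100a6 averaged 828 ± 380 and 1594 ± 348 CPM and fell by 0.998 ± 0.19 on the log2 scale (adjusted p 0.0416), and the Rap1 GTPase-activating protein gene Rap1gap2 averaged 93.0 ± 48.8 and 253 ± 115 CPM (-1.48 ± 0.22, adjusted p 0.00655). The predicted gene Gm4956 completed the lower set at 63.0 ± 34.5 and 241 ± 96.3 CPM (-1.81 ± 0.30, adjusted p 0.0166). S100a6 overlapped between the gates over libraries, while its value was lower in the less mature gate within each library. All 10 genes that passed also passed without the deep barcodes.

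Emb was the single gene that passed as higher in the less mature cells. It stood at 276, 118, 121, 333 and 288 CPM in less mature NK cells of knockouts 1 and 3 and controls 1 to 3, and at 145, 48.8, 88.3, 81.3 and 129 CPM in mature NK cells. The gates overlapped over libraries, since 2 less mature values lay below the highest mature ones, but each library had more in its less mature gate, by 1.16 ± 0.20 on the log2 scale (adjusted p 0.0182, edgeR). Tox, a factor needed for NK cell development, averaged 381 ± 157 CPM in the less mature and 213 ± 103 CPM in the mature gate and was higher in 4 of 5 libraries. Its log2 fold change of 0.89 ± 0.20 missed the threshold (adjusted p 0.108, edgeR) and stood at 1.00 without the deep barcodes (adjusted p 0.00344). Xcl1, whose product attracts cross-presenting dendritic cells, averaged 1150 ± 327 and 668 ± 370 CPM in the less mature and mature gates and was higher in the less mature gate of 5 of 5 libraries. Its log2 fold change was 0.95 ± 0.21 (adjusted p 0.108) and 1.07 without the deep barcodes (adjusted p 0.0392, edgeR).

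Promoter sequences of the 10 genes were examined for the core letters bound by factors of the 2 maturation steps, and those of the single higher gene and of the lower granzyme and chymase genes are shown as examples of both directions. Windows were the 250 bases before each start in the RefSeq table of GRCm38.p6, a build other than the GRCm39 named in the submitters' processing notes, and 8 of the 10 genes matched. Searched on both strands were GTGTGA, a T-box core as bound by T-bet and EOMES, and CTTTGA, a core of TCF/LEF elements as bound by TCF-1, with the matches in capitals.
Emb, chr13:117220323-117220572, plus strand: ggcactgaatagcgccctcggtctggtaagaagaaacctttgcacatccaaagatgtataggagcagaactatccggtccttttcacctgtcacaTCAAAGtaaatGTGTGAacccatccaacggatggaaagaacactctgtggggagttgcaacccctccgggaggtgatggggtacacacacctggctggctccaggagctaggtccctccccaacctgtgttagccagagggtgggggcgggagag
Gzma, chr13:113100982-113101231, minus strand: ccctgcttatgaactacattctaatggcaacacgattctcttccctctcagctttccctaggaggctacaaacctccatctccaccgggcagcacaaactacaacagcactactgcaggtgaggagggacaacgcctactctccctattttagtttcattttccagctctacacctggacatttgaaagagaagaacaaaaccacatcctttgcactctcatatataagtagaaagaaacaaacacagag
Cma1, chr14:55944676-55944925, minus strand: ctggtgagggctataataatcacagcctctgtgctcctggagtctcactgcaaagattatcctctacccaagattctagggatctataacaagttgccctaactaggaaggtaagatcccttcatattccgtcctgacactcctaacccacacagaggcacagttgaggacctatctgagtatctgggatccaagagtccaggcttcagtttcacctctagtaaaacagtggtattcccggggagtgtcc
The Emb window held both, with the TCF/LEF core on the minus strand 155 bases and the T-box core 144 bases before the start, and the windows of Gzma and Cma1 held neither. GTGTGA was found in 12.3% and CTTTGA in 13.8% of 32851 promoter windows of the same length. The 8 genes had 16 windows, since some have more than 1 start. Of these 16 windows, 3 held GTGTGA (of Emb, Rap1gap2 and S100a6) and 1 held CTTTGA (of Emb). A match of 6 letters describes the window and is not a binding site.

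Gene lists put these genes in context, read beside the median log2 fold change of 0.01 over all 5489 genes, of which 51.1% were above 0 (51.0% without the deep barcodes). Of 20 markers of mature NK cells outside the rule, 19 were tested, 5 fell (Cma1, Ly6c2, Gzma, Zeb2 and S100a6), and all 19 had a log2 fold change below 0 with a median of -0.79. Without the deep barcodes the median was -0.64 with the same number below 0. Cma1 and Ly6c2, close to 0 in most libraries of the less mature gate, could meet the filter on low counts through the mature gate, where they were high, so these tallies describe the tested genes and support nothing. Among those that missed the threshold were Irf8, which acts in NK effector function, at -0.79 ± 0.17, the integrin gene Itgb2 at -1.08 ± 0.24, and Gzmb at -0.54 ± 0.17, with adjusted p of 0.0938, 0.109 and 0.304 in edgeR. Of 20 markers of immature NK cells outside the rule, 13 were tested, 1 rose (Emb), and the median was 0.05. Cd160 stood at 0.63 ± 0.20 (adjusted p 0.304, edgeR).

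Cytotoxic effector genes had 13 members tested, of which 1 fell (Gzma), and 11 were below 0 with a median of -0.35. Nkg7 stood at -0.48 ± 0.14 (adjusted p 0.235, edgeR) and averaged 1516 ± 289 CPM in the less mature and 2169 ± 439 CPM in the mature gate. Activating receptors and adaptors had no member past the threshold among 19, and 16 were below 0 with a median of -0.35, among them the adaptor genes Fcer1g and Tyrobp at -0.49 ± 0.13 each (adjusted p 0.202 and 0.218). Of the transcription factors, 1 of 22 fell (Zeb2), and Tbx21, which encodes T-bet, stood at -0.82 ± 0.19 (adjusted p 0.146, edgeR) and was lower in 5 of 5 libraries. Among 8 tested cytokine and chemokine genes 1 fell (Ccl5), and Ccl3 stood at -1.03 ± 0.21 (adjusted p 0.0882) with Xcl1 on the other side of 0.

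Genes of ribosome production lay on the higher side without passing. All 22 tested genes of the MYC and ribosome biogenesis list were above 0 with a median of 0.60, and 12 had an unadjusted p under 0.05, all higher. Fbl, the rRNA methyltransferase fibrillarin, averaged 198 ± 43.0 CPM in the less mature and 123 ± 29.1 CPM in the mature gate (0.68 ± 0.18, adjusted p 0.202, edgeR). All 22 cytoplasmic ribosomal protein genes were above 0 with a median of 0.26, and Rps19 stood at 0.41 ± 0.11 (adjusted p 0.202). Without the deep barcodes the medians were 0.42 and 0.27 with every tested member above 0 and none past the threshold. Proliferation genes had a median of 0.14 with none of 21 past the threshold, and at least 2 of 6 cell cycle genes were found in 52 of 284 less mature (18.3%) and 54 of 418 mature barcodes (12.9%), at medians of 5378 and 4160.5 UMIs. Oxidative phosphorylation genes had a median of 0.15, and of -0.01 without the deep barcodes.

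**Figure D2:**
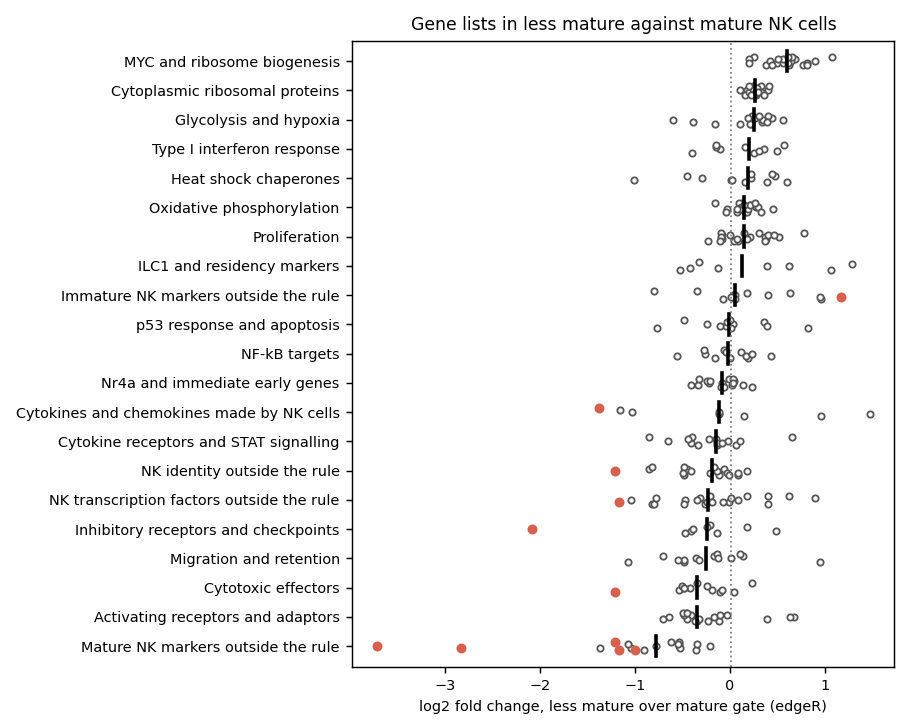
Log2 fold change, less mature over mature NK gate (edgeR), of each tested gene of 21 lists; each point is a gene, filled red points passed an adjusted p of 0.05, black bars are list medians and the dotted line is the median over all tested genes (0.01). Mature NK markers sit lowest, with 5 red points, and the ribosome biogenesis and ribosomal protein lists lie wholly above 0 with none.

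Hepatocyte transcripts were present in both gates. Of the 12 hepatocyte genes tested 6 were above and 6 below 0, and without the deep barcodes the 6 tested had a median of -1.34 with 3 that fell. The summed level of the 16 hepatocyte genes without deep barcodes was 567 CPM in the less mature and 5041 CPM in the mature gate of knockout 3, and 901 and 2029 CPM in control 3, where no barcode was deep. The part of hepatocyte RNA in the results was not tested.

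The second comparison set the less mature NK cells against 53 barcodes with at least 3 of the same NK genes and a UMI of the ILC1 marker Cxcr6, called the Cxcr6 gate. Only controls 1 and 3 had at least 10 cells in both gates, so the test rests on 4 sums with 1 residual degree of freedom between libraries and speaks for control mice only. Less mature NK cells had lower Gzmc, Cd200r1, Tnfsf10 and Inpp4b and higher Sh2d1a, Klra3 and Klra1 than the Cxcr6 gate. Of 5921 genes 35 passed (0.591%; edgeR with library as a block), 13 higher (0.22%) and 22 lower (0.372%), and without the deep barcodes 81 of 4668 (1.74%), 29 higher and 52 lower. Without the library block no gene passed and 261 had an unadjusted p under 0.05.

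Of 15 tested markers of ILC1 and tissue residency, 9 fell and 14 were below 0, with a median of -2.02 beside 0.03 over all genes, of which 52.8% were above 0, and -1.86 without the deep barcodes. Against the mature gate 8 genes of this list were tested. Genes low in the less mature gate, such as Cd200r1, could meet the filter on low counts through the Cxcr6 gate, where they were high. These tallies therefore describe the tested genes and support nothing. Gzmc, the granzyme C gene, stood at 116 and 112 CPM in less mature NK cells (controls 1 and 3), against 1433 and 808 CPM in the Cxcr6 gate (-3.10 ± 0.32, adjusted p 0.000749, edgeR). The inhibitory receptor gene Cd200r1 stood at 19.1 and 16.5 CPM, against 227 and 204 CPM (-3.46 ± 0.41, adjusted p 0.00158). Tnfsf10, which encodes the death ligand TRAIL, stood at 20.7 and 29.9 CPM, against 187 and 195 CPM (-2.77 ± 0.41, adjusted p 0.00776). In both libraries each of these genes was several fold lower in the less mature cells, and the gates did not overlap. Genes known from other lymphocytes moved the same way. Trgc4, a constant gene of the gamma delta T cell receptor, stood at 20.7 and 26.8 CPM, against 247 and 153 CPM in the Cxcr6 gate (-2.87 ± 0.43, adjusted p 0.00778, edgeR). Tmem176b, the 1 tested gene of the ILC2 and ILC3 list, stood at 90.6 and 31.9 CPM, against 327 and 200 CPM (-2.09 ± 0.36, adjusted p 0.0212). All 4 tested T cell genes were below 0 with a median of -0.76, none past the threshold, and the 13 T cell genes summed to 518 and 859 CPM, against 1493 and 998 CPM. Their part in the result was not tested.

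The chemokine genes Xcl1 and Ccl4 and the receptor gene Cd226 were also lower in the less mature cells than in the Cxcr6 gate. Of 9 tested cytokine and chemokine genes these 2 fell and 8 were below 0, with a median of -0.62, and of 19 activating receptors and adaptors 1 rose (Sh2d1a) and 1 fell (Cd226), with a median of -0.03. Xcl1 stood at 1596 and 1238 CPM in less mature NK cells (controls 1 and 3), against 5693 and 2293 CPM in the Cxcr6 gate (-1.24 ± 0.23, adjusted p 0.0251 in edgeR, and 0.0705 without the deep barcodes). Ccl4 stood at 734 and 414 CPM, against 2693 and 1151 CPM (-1.55 ± 0.24, adjusted p 0.00899). The adhesion receptor gene Cd226, which encodes DNAM-1, stood at 105 and 175 CPM, against 487 and 673 CPM (-1.94 ± 0.31, adjusted p 0.0117). Xcl1 therefore had its lowest values in the mature gate and its highest in the Cxcr6 gate within both libraries, at 802 and 709 CPM in mature NK cells of controls 1 and 3.

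**Figure D3:**
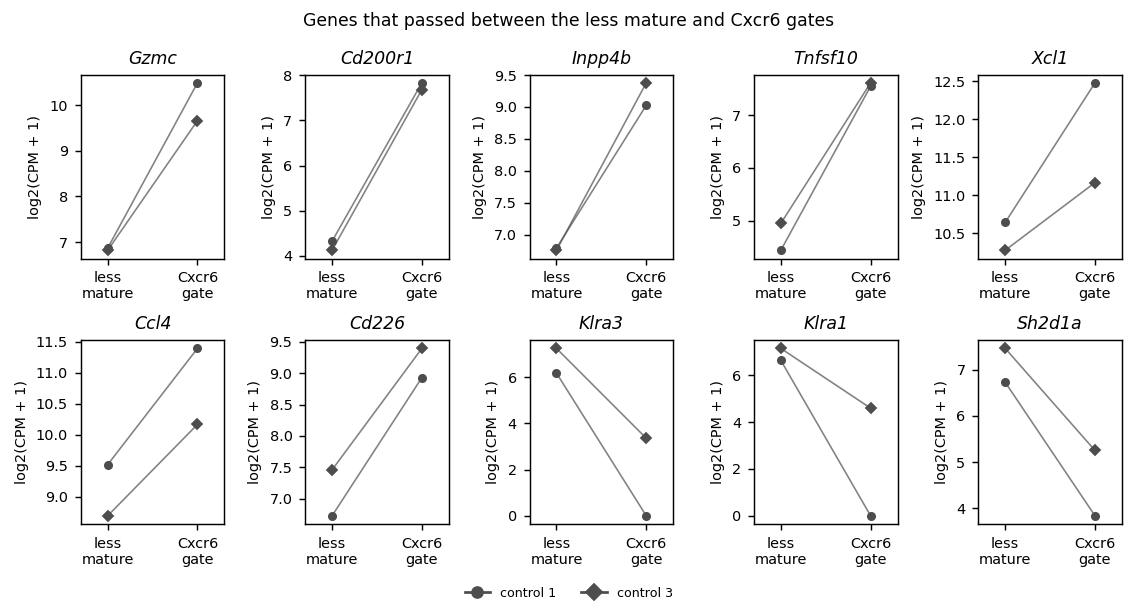
Genes that passed between the less mature gate (left of each panel) and the Cxcr6 gate (right) in controls 1 and 3, chosen for the text, as log2(CPM + 1) of the UMI sums; lines join the gates of a library and axes do not start at 0. The upper row, Ccl4 and Cd226 lie lower and Klra3, Klra1 and Sh2d1a higher in the less mature gate in both libraries.

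The genes higher in the less mature cells included an adaptor gene and Ly49 genes. Sh2d1a, the adaptor SAP of the SLAM receptors, stood at 105 and 175 CPM in less mature NK cells (controls 1 and 3), against 13.3 and 37.1 CPM in the Cxcr6 gate (2.57 ± 0.48, adjusted p 0.0299, edgeR). Klra3 stood at 71.5 and 151 CPM, against 0 and 9.28 CPM, and Klra1 at 98.5 and 141 CPM, against 0 and 23.2 CPM. Both belong to the near-identical Ly49 genes whose counts are uncertain. Sh2d1a, Klra3 and Klra1, low in the Cxcr6 gate, could meet the filter on low counts through the less mature gate, where they were high. The Cxcr6 gate of control 1 held few UMIs, so a value of 0 there does not show absence. The results of these genes therefore describe the tested genes and support nothing. The blood genes Hbb-bs and Hba-a1, the hepatocyte gene Serpina1a and Fabp5 also passed on this side. The hepatocyte list had a median of 1.83 with the deep barcodes and 0.16 without them. Hba-a1, Serpina1a and Fabp5 no longer met the filter on low counts without the deep barcodes. Of the NK identity list none of 18 passed, with 9 above and 9 below 0.

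The third comparison asked how the share and the transcripts of the less mature cells differ between mice labelled knockout for Nr4a1 in Ncr1-expressing cells and control mice. Reads at the 3′ end of Nr4a1 do not check the deletion, since the labels do not say which part is floxed. Nr4a1 stood at 114, 0 and 65.7 CPM (24, 0 and 20 UMIs) in less mature NK cells of knockouts 1, 2 and 3, against 68.3, 24.7 and 48.4 CPM (43, 4 and 47 UMIs) in those of controls 1, 2 and 3. The groups overlapped and the log2 fold change was 0.79 ± 0.48 (adjusted p 1.00, edgeR), and 0.71 without the deep barcodes. Its relative Nr4a2 stood at 186, 55.7 and 52.6 CPM, against 52.5, 30.9 and 66.9 CPM (1.09 ± 0.54, adjusted p 1.00), and 0.97 without the deep barcodes. Nr4a3 stood at 47.6, 55.7 and 26.3 CPM, against 9.54, 12.3 and 28.8 CPM, and was too low to be tested.

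The NK gate was set as all kept barcodes with at least 3 of the 8 NK genes and no UMI of the excluded T cell, B cell and macrophage genes. Less mature NK cells made up 33.8%, 23.1% and 23.4% of the NK gate in knockouts 1, 2 and 3, with exact (Clopper-Pearson) 95% intervals of 22.8 to 46.3%, 8.97 to 43.6% and 15.9 to 32.4%. In controls 1, 2 and 3 they made up 29.9%, 26.9% and 35.2%, with intervals of 24.0 to 36.4%, 18.8 to 36.2% and 30.4 to 40.2%. The groups overlapped, with means of 26.8 ± 6.11% and 30.6 ± 4.22% (SD, n = 3 libraries each), and the difference of -3.87 percentage points had p = 0.5 in an exact two-sided permutation test, whose smallest p here is 0.1. Of all kept barcodes the members made up 0.828%, 4.48% and 0.500% in knockouts 1, 2 and 3, against 2.48%, 5.28% and 1.31% in controls 1, 2 and 3. That difference, -1.09 points (exact permutation p = 0.5), was 0.04 points without control 2. After thinning each barcode to 1000 UMIs the share of the NK gate was 13.9%, 9.09% and 24.3% in the knockouts, against 14.9%, 19.7% and 23.6% in the controls, with 1, 4 and 3 barcodes of the NK gate, against 3, 7 and 3, left out as too shallow.

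Genes of the gate had unlike values in the groups, and their part in these shares was not tested. Ncr1, which carries the Cre in the knockouts, was found in 65.2%, 83.3% and 65.4% of members of knockouts 1, 2 and 3, against 91.0%, 75.9% and 91.0% in controls 1, 2 and 3. Its level was 157, 474 and 246 CPM, against 467, 469 and 591 CPM. Prf1 stood at 671, 975 and 555 CPM in the knockouts, against 245, 339 and 486 CPM in the controls, and Tcf7 at 71.4, 55.7 and 55.8 CPM, against 92.2, 204 and 110 CPM. Ltb stood at 157, 55.7 and 115 CPM, against 183, 327 and 272 CPM, and Cd27 at 114, 139 and 69.0 CPM, against 52.4, 80.2 and 88.6 CPM. Ncr1 overlapped between the groups through knockout 2 and Cd27 through knockout 3, and Prf1, Tcf7 and Ltb did not overlap, but all 5 belong to the rule and have no test.

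**Figure D4:**
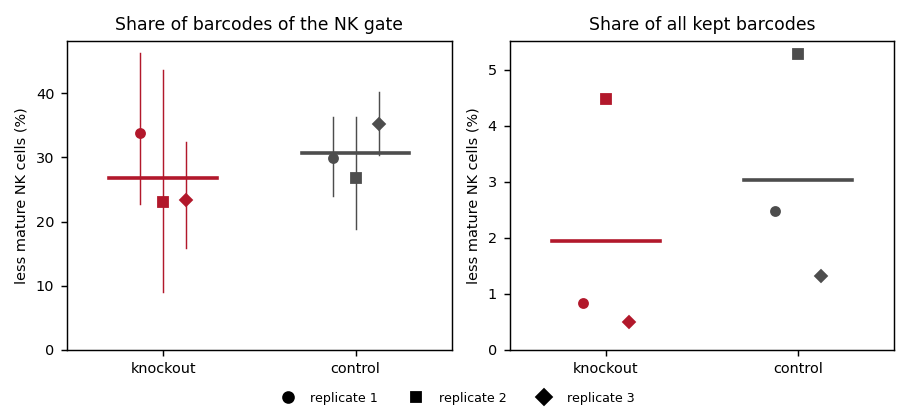
Less mature NK cells as a share of the NK gate (left) and of all kept barcodes (right), in percent, for the 3 knockout and the 3 control libraries; thick lines are group means and thin vertical lines on the left are exact 95% binomial intervals, which cover counting error only. The knockout and control points overlap in both panels, with knockouts at 23.1% to 33.8% and controls at 26.9% to 35.2% on the left.

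Across genes, knockouts 1 and 3 were compared with controls 1, 2 and 3. Cdkn1a, Ccng1 and Bax are 3 of the 13 tested genes of the p53 response list. In less mature NK cells, these 3 and the protease inhibitor gene Serpine2 were higher in knockouts 1 and 3 than in all 3 controls. Dscam was lower in knockouts 1 and 3 than in all 3 controls. None of 5321 genes passed an adjusted p of 0.05 in edgeR (0.0%), 86 (1.62%) had an unadjusted p under 0.05, and DESeq2 called 1, Serpine2. Without the deep barcodes 3 of 3858 passed (0.0778%), of which Serpine2 and Cdkn1a rose and Dscam fell. With all 6 libraries none of 4068 passed, and none of 3518 without the deep barcodes, with Serpine2 and Cdkn1a too low to be tested there. In the main test, Serpine2 and Cdkn1a could meet the filter on low counts through the knockouts, where they were high. Dscam could meet it through the controls. The results of these genes therefore describe the tested genes and support nothing.

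Serpine2, which encodes protease nexin-1, stood at 152, 27.9 and 59.1 CPM (32, 1 and 18 UMIs) in less mature NK cells of knockouts 1, 2 and 3, against 1.59, 12.3 and 4.12 CPM (1, 2 and 4 UMIs) in those of controls 1, 2 and 3. All 3 knockouts lay above all 3 controls. The log2 fold change was 4.52 ± 0.69 (adjusted p 0.636, edgeR), and 4.56 without the deep barcodes (adjusted p 0.00988). With 1, 2 and 4 UMIs in the controls, Serpine2 could meet the filter on low counts only through the knockouts, where it was high. In mature NK cells it stood at 62.0, 0 and 25.4 CPM in knockouts 1, 2 and 3, against 7.36, 0 and 9.82 CPM in controls 1, 2 and 3.

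Cdkn1a, the p53-induced cell cycle inhibitor p21, stood at 133, 27.9 and 78.8 CPM (28, 1 and 24 UMIs) in the knockouts, against 33.4, 12.3 and 16.5 CPM (21, 2 and 16 UMIs) in the controls. Knockout 2, with 1 UMI, lay below control 1, and the log2 fold change was 2.20 ± 0.50 (adjusted p 1.00, edgeR), and 2.84 without the deep barcodes (adjusted p 0.0129). Ccng1, encoding cyclin G1, stood at 71.4, 83.6 and 62.4 CPM, against 14.3, 30.9 and 26.8 CPM (1.53 ± 0.45). The pro-apoptotic gene Bax stood at 333, 167 and 266 CPM, against 149, 111 and 125 CPM (1.19 ± 0.36). For Ccng1 and Bax all 3 knockouts lay above all 3 controls, with an adjusted p of 1.00 for both in edgeR, and of 0.798 and 0.069 without the deep barcodes. Of 13 tested genes of the p53 response list these 3 had an unadjusted p under 0.05, all higher, beside 1.62% of all genes. Cdkn1a and Ccng1 could meet the filter on low counts through the knockouts, where they were high. This tally therefore describes the tested genes and supports nothing. The list had 7 genes above and 6 below 0, with a median of 0.11 beside -0.01 over all genes.

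Dscam, best known as a neuronal adhesion gene, stood at 14.3, 474 and 13.1 CPM (3, 17 and 4 UMIs) in less mature NK cells of knockouts 1, 2 and 3, against 66.8, 185 and 163 CPM (42, 30 and 158 UMIs) in those of controls 1, 2 and 3. Knockout 2, which was outside the test, had the highest value of all 6 libraries, and the other 2 knockouts the lowest. The log2 fold change was -3.26 ± 0.60 (adjusted p 1.00, edgeR), and -3.61 without the deep barcodes (adjusted p 0.0129), but -0.72 with all 6 libraries (unadjusted p 0.476, edgeR). Crtam, an adhesion receptor of activated NK and T cells, stood at 9.52, 27.9 and 26.3 CPM, against 42.9, 67.9 and 37.1 CPM. All 3 knockouts lay below all 3 controls for Crtam, with 2, 1 and 8 UMIs against 27, 11 and 36, and the log2 fold change was -1.29 ± 0.59 (adjusted p 1.00, edgeR).

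**Figure D5:**
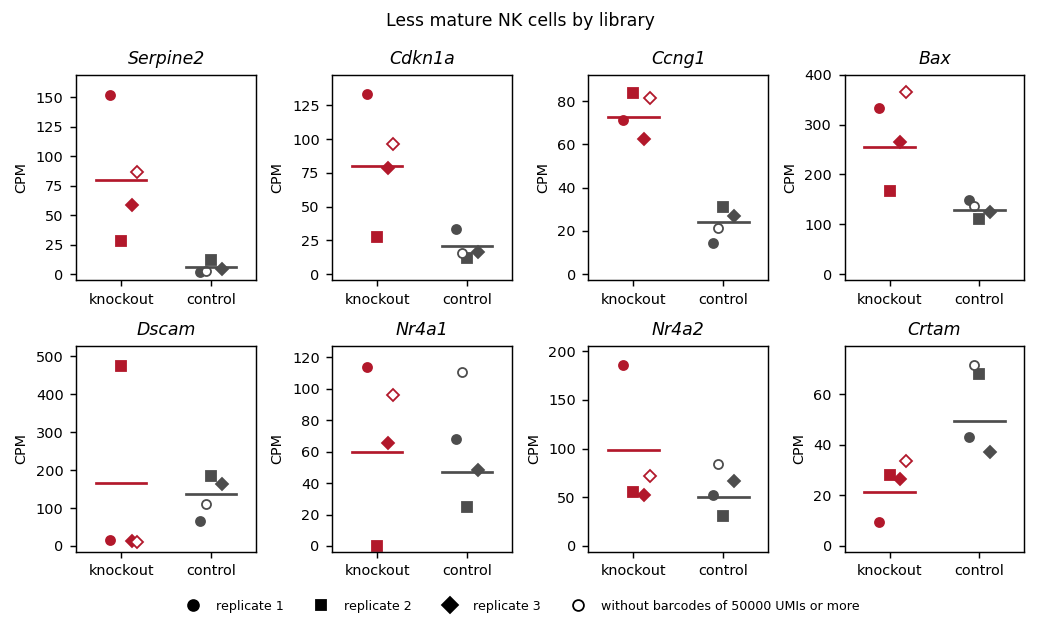
CPM of 8 genes in less mature NK cells of the 3 knockout (left, red) and 3 control libraries (right, grey); lines are means of the 3 libraries, open symbols give knockout 3 and control 1 without barcodes of at least 50000 UMIs, and each panel has its own axis. Serpine2, Ccng1 and Bax lie higher and Crtam lower in all 3 knockouts than in all 3 controls, and Dscam, Nr4a1 and Nr4a2 overlap.

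The remaining 5 of the 10 genes with the smallest unadjusted p had the following values. Zzef1, which encodes a zinc finger protein, stood at 23.8, 111 and 16.4 CPM in the knockouts, against 46.1, 67.9 and 68.0 CPM in the controls (-1.59 ± 0.47). The mitochondrial transcript mt-Co3 stood at 3861, 14213 and 3264 CPM, against 5821, 9177 and 4903 CPM (-0.88 ± 0.26), and its log2 fold change was 0.03 with all 6 libraries. Both overlapped through knockout 2, the library with the most mitochondrial UMIs. Cox6a2, a muscle-type subunit of cytochrome c oxidase, stood at 47.6, 0 and 52.6 CPM in the knockouts, against 3.18, 0 and 10.3 CPM in the controls (3.00 ± 0.90), and Nans, a sialic acid synthase, at 162, 0 and 102 CPM, against 57.2, 43.2 and 56.6 CPM (1.26 ± 0.38). Rbm38, an RNA-binding protein, stood at 9.52, 0 and 9.85 CPM, against 63.6, 43.2 and 29.9 CPM (-2.21 ± 0.67). The adjusted p of each was 1.00 in edgeR. Knockouts 1 and 3 were lower than all 3 controls for Rbm38 and higher for Cox6a2 and Nans, and knockout 2 had no UMI of these 3 genes, which at its depth does not place it.

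With all barcodes no member of any gene list passed between knockouts and controls, and without the deep barcodes Cdkn1a did, of the p53 response list. Of all genes 49.1% were above 0. Proliferation genes were above 0 in 19 of 21, with a median of 0.61, and at least 2 of 6 cell cycle genes were found in 7 of 23, 0 of 6 and 6 of 26 members of knockouts 1, 2 and 3, against 17 of 67, 3 of 29 and 19 of 133 in controls 1, 2 and 3. Oxidative phosphorylation genes were above 0 in 21 of 22, with a median of 0.23. Transcription factors were below 0 in 18 of 22, with a median of -0.25, Tbx21 among them at -0.98 ± 0.50 (adjusted p 1.00, edgeR). Cytokine receptor and STAT genes were below 0 in 13 of 15, with a median of -0.19, and ILC1 markers in 7 of 9, with a median of -0.86. Immature NK markers were below 0 in 10 of 13, with a median of -0.32, and mature NK markers in 8 of 17, with a median of 0.05. Without the deep barcodes the medians of these lists kept their sides of 0, at 0.61 for proliferation, 0.16 for oxidative phosphorylation, -0.18 for transcription factors, -0.22 for cytokine receptors and STAT genes, -0.24 for immature and 0.08 for mature NK markers. The hepatocyte list had a median of 0.54 over 14 tested genes with the deep barcodes and of -0.93 over 4 without them. Gzma stood at 5794, 6939 and 5235 CPM in knockouts 1, 2 and 3, against 2575, 3561 and 5016 CPM in controls 1, 2 and 3, and its log2 fold change of 0.57 ± 0.27 had an adjusted p of 1.00 in edgeR.

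The difference between the genotype effects in less mature and mature NK cells was tested directly as an interaction. None of 7013 genes passed (0.0%; edgeR), with 304 (4.33%) at an unadjusted p under 0.05 and none in DESeq2, and 3 of 5784 passed without the deep barcodes (0.0519%). With a control left out, 101 of 5682 passed without control 3, 4 of 5549 without control 1 and 0 of 7708 without control 2. The difference of log2 fold changes, less mature minus mature, was 2.07 ± 0.93 for Serpine2 and -0.55 ± 0.46 for Nr4a1 (adjusted p 0.996 each), and -0.03 ± 1.14 for Crtam, which stood at 0.24 in DESeq2, 0.22 without control 2 and 4.60 without knockout 3. For Dscam it was -3.60 ± 0.62 (adjusted p 0.489), and -4.31 without the deep barcodes (adjusted p 0.00329). Dscam stood at 79.2, 30.9 and 66.4 CPM in mature NK cells of knockouts 1, 2 and 3, against 55.2, 71.7 and 48.2 CPM in those of controls 1, 2 and 3, where the groups overlapped. The other 2 that passed without the deep barcodes were Mup3 and Mup20, hepatocyte genes with near-identical copies, at 19.7 and 23.0 CPM in less mature and 431 and 484 CPM in mature NK cells of knockout 3.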

How the data were processed

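Droplet libraries from tumour-bearing liver, 3 labelled knockout and 3 control, were read from the deposited matrices. The deposited values are raw counts of UMIs. Per the file headers, Cell Ranger was version 7.0.1 in libraries 1 and 2 of each group and version 9.0.1 in library 3 of each, and 9.0.1 and GRCm39 stand in the submitters' processing notes. Barcodes and features in the other deposited files are names. Enzymes freed the cells and 10x 3′ kits made the libraries, per the labels' protocols. Reads of near-identical genes are uncertain. Hashtag counts stayed out of library sizes.

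UMIs of each gate were summed per library with at least 10 cells and tested with edgeR 4.0.16 in R 4.3.3 (quasi-likelihood, TMM, filterByExpr, two-sided) and adjusted by Benjamini-Hochberg over all genes outside the 22 of the rule, at 0.05. The SE was taken from the log2 fold change and the F statistic. CPM divides the UMIs of a gene by those of all genes in the sum. DESeq2 1.42.0 was an alternative. Scripts were tested on simulated data. Shares were tested with exact permutation in scipy 1.17.1.

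Members, gene lists and tests were chosen with earlier results of these data known. Named genes between gates were up to 10 per direction with the largest change among those that passed at a mean of at least 50 CPM, and from each list the 3 genes of smallest p. Between genotypes they were Nr4a1, Nr4a2, Nr4a3, Ncr1, Serpine2, Crtam, the 10 smallest p and from each list the 2 genes of smallest p, and for the interaction the 5 smallest p with Nr4a1, Serpine2 and Crtam. Not all genes that these rules name are given in the text. No doublet caller was run. Libraries shared 0 to 15 barcodes, at most 0.334% of the smaller.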

Additional observations from a re-analysis of the deposited data

How the results depend on the processing

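The number of cells limits the tests, with 6 members in knockout 2, which entered only the alternatives with all 6 libraries. The gate moves with depth: of the members found after thinning to 1000 UMIs (5, 1 and 17 in knockouts 1, 2 and 3, against 21, 13 and 73 in controls 1, 2 and 3) 2, 0 and 7, against 15, 8 and 27, were members at full depth. Counts of genes that passed varied with the setting, and the cause was not tested. Numbers tested varied too. Between knockouts and controls 0 of 5321 passed in edgeR, with 86 at an unadjusted p under 0.05. Counts were 1 of 5321 in DESeq2, 20 of 16586 without a filter on low counts and 2 of 5114 with at least 4 NK genes. They were 3 of 3858 without the deep barcodes, 1 of 5321 with a replicate block and 0 with a control left out. Between less mature and mature cells (10 of 5489) they were 18 of 5489 in DESeq2, 80 of 18236 without a filter and 3 of 5489 with no replicate block. They were 42 of 4341 against a stricter mature gate and 21 of 4659 with at least 4 NK genes. After thinning they were 28 of only 243, without knockout 1. They were 23 of 4643 without the deep barcodes and, with a replicate left out, from 5 of 6440 to 11 of 5602. Against the Cxcr6 gate (35 of 5921) they were 16 of 5921 in DESeq2, 123 of 16290 without a filter and 0 of 5921 with no replicate block. They were 81 of 4668 without the deep barcodes, and fits on thinned counts or without either control library could not be had. For the interaction (0 of 7013) they were 38 of 18236 without a filter and 3 of 5784 without the deep barcodes. With a control left out they were 101 of 5682 without control 3, 4 of 5549 without control 1 and 0 of 7708 without control 2. The replicate numbers were not used as pairs in the main test of knockouts against controls. Deviations of same-numbered libraries correlated at 0.001, 0.382 and -0.108 over 4080 genes, and those of unlike-numbered libraries at -0.491 to 0.558. With 3 libraries per group and 6 members in knockout 2, these values cannot exclude pairing. The gene that passed with the replicate block was Serpine2. The difference in the share of kept barcodes ranged from -2.362 to 0.037 with a replicate left out, and that in the share of the NK gate kept its sign throughout.

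None of the genes that changed direction under an alternative passed in either setting. Between knockouts and controls, log2 fold changes were 0.029 for mt-Co3 and 0.138 for Ccl5 with all 6 libraries, 0.07 for Ccl5 and -0.055 for Sdhb with all 6 and a replicate block, and 0.126 for mt-Co3 and 0.095 for Ccl5 and Pgam1 with all 6 without the deep barcodes. They were -0.034 for Klf2, 0.055 for Pgam1 and -0.178 for Dnajb1 with mice as units, 0.227 for Mybbp1a, 0.014 for Gnl3, 0.162 for Pgam1 and -0.038 for Dnajb1 with at least 4 NK genes, and 0.051 for Pgam1 without the deep barcodes. With a replicate left out they ranged from -1.549 to 2.534 for Serpinb9b, -1.652 to 0.094 for Mybbp1a, -0.879 to 0.09 for Gnl3, -0.399 to 1.001 for Uqcrb, -0.546 to 0.204 for Pgam1, -1.628 to 0.019 for Icam1 and -0.124 to 0.856 for Dnajb1. Between less mature and mature cells they were 0.116 for Cd69 against the stricter gate and 0.075 in controls alone, -0.147 for Hsp90ab1 after thinning, and -0.011 to 0.77 for Ndufa5 with a replicate left out. Atp5g1 stood at -0.019 against the Cxcr6 gate without the deep barcodes. For the interaction Crtam stood at 0.238 in DESeq2, and with a replicate left out the ranges were -0.449 to 4.598 for Crtam, -0.059 to 6.154 for Fabp6, -4.113 to 0.461 for Mup3 and -3.941 to 0.558 for Mup20.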

Other observations

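Hashtags, antibody tags that mark the mouse of origin in the libraries numbered 3, gave less mature NK cells as 41.4% (12 of 29) and 15.8% (3 of 19) of the NK gate in the 2 mice of knockout 3. In the 3 mice of control 3 the values were 27.9% (19 of 68), 31.1% (28 of 90) and 43.4% (23 of 53). Of the mice of knockout 3, 1 lay below all mice of control 3 and 1 within their range. Barcodes without an assigned mouse held 17.5% (11 of 63) in knockout 3 and 38.1% (53 of 139) in control 3, and hashtag multiplets held 0 members in knockout 3 and 10 in control 3.

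Of 889 barcodes that met the required genes of the rule and were kept out by an excluded gene, 267 were kept out by a single gene. Itgam alone kept out 84, Cxcr6 alone 42, Cd3d alone 32, Klrg1 alone 31, Cd3g alone 25 and S1pr5 alone 18.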
